A study of Mus musculus with 2 samples.

Results

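In a library of 1602 DMSO-treated cells of dysplastic mouse gastric organoids, 160 cells were selected on high counts of Ddit3 and Trib3, both genes of the integrated stress response. These Ddit3/Trib3-high cells were chosen by the summed counts of the 2 genes per 10000 counts of the cell, as the highest 10% of all barcodes past a threshold on total counts. They were set against the 975 DMSO cells with 0 counts of both genes, called zero-count cells here, and the remaining 467 DMSO cells had counts below the limit. The 2 libraries of the series held 2456 cells past their thresholds in all.

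The series used Meta4, 1 line of dysplastic organoids grown from the stomach corpus of mice with a Mist1-CreERT2 transgene, an inducible Cre recombinase under the chief cell promoter Mist1, and a K-ras transgene behind a lox-stop-lox cassette. After dysplasia induction, 1 set of organoids received the anthelmintic drug pyrvinium and 1 set its solvent DMSO, each for 1 day, to find the cells that respond before the organoids lose their shape. Each treatment gave 1 single-cell RNA library, so no difference has a replicate check, no test was run, and 95% intervals cover counting error only. The pyrvinium library held 854 cells with a median of 31517 counts and the DMSO library 1602 cells with a median of 18593 counts, with 37046673 and 39980497 counts in total and 0 cell barcodes in common.

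The integrated stress response begins with kinases that phosphorylate the translation factor eIF2alpha, which slows protein synthesis in general while the messenger of the transcription factor ATF4 is translated more. ATF4 turns on genes of amino acid synthesis and transport and of tRNA charging, and also Ddit3, which encodes the transcription factor CHOP. CHOP and ATF4 together turn on Trib3, a pseudokinase that restrains ATF4 activity. Amino acid shortage, stress of the endoplasmic reticulum and mitochondrial stress are among its known triggers.

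The promoters of both genes that chose the cells, and of the 4 other regulators and ATF4 targets with the largest ratio among those whose promoter entry held the motif, are shown because ATF4 and C/EBP family proteins such as CHOP are known to bind elements with the core TGATGNAA. Sequences are RefSeq's, of build GRCm38.p6, run 5′ to 3′ on the strand of the gene, and span 250 bases before to 50 bases after its start site. Capitals mark TGATGNAA or its reverse complement. The windows lie at chr10:127290543-127290842 (plus strand) for Ddit3, chr2:152344011-152344310 (minus) for Trib3, chr7:126625421-126625720 (minus) for Nupr1, chr2:119350992-119351291 (plus) for Chac1, chr19:27216770-27217069 (plus) for Vldlr and chr8:94386179-94386478 (plus) for Herpud1.
Ddit3: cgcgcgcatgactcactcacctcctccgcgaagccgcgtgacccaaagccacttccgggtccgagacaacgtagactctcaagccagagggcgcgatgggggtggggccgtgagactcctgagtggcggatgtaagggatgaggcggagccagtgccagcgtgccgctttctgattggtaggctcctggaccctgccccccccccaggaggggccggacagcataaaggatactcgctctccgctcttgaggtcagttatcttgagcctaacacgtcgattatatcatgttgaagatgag
Trib3: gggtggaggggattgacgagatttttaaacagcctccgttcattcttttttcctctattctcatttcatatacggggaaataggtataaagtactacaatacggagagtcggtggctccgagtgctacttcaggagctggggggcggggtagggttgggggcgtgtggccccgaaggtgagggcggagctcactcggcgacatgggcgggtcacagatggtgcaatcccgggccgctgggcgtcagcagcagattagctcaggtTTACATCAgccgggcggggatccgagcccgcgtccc
Nupr1: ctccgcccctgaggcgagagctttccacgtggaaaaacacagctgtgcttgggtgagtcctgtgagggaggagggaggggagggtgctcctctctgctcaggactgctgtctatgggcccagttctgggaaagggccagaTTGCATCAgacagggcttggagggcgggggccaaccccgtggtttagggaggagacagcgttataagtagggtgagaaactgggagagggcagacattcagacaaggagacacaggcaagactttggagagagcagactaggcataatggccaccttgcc
Chac1: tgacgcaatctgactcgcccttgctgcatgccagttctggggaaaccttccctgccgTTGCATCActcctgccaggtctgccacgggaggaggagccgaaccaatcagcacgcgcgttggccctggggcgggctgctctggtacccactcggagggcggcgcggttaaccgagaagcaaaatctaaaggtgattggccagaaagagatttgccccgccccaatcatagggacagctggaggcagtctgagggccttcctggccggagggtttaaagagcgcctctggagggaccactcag
Vldlr: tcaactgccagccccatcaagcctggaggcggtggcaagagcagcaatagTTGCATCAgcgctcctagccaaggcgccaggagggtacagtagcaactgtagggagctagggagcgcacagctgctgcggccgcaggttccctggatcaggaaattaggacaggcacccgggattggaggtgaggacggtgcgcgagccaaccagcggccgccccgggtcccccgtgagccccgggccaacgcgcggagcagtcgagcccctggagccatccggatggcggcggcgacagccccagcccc
Herpud1: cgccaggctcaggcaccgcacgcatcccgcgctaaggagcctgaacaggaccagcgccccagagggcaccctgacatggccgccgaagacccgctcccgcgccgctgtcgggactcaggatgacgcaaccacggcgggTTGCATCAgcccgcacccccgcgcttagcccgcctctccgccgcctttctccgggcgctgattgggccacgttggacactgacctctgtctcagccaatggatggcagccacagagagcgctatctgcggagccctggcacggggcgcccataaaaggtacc
The Ddit3 window held no match. The Trib3 window held TTACATCA, 15 bases after the start site, and the other 4 held TTGCATCA between 110 and 200 bases before it. Vldlr had 2 entries, and the one shown was picked for holding the motif. Searched on both strands, the motif was in the promoter of 7 of 25 ATF4 target genes and of 3 of 14 regulators, Ddit3 and Trib3 included, that had an entry, against 1219 of 27025 genes of the whole table (4.51%). It was in 0 of 15 genes of the hypoxia response and 0 of 16 of glycolysis. A match describes the letters of the window and is not a binding site.

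Among the Ddit3/Trib3-high cells, 125 held counts of both genes, 25 of Ddit3 alone and 10 of Trib3 alone. Their summed counts per cell ranged from 2 to 41 with a median of 8, which made scores of 1.504 to 22.04 per 10000 counts with a median of 4.42. The 3 cells just inside the limit scored 1.504, 1.506 and 1.511, and the 3 just outside 1.475, 1.466 and 1.466, so the limit cuts a continuous range. Of the 160 cells, 8 rested on 2 counts, and 27 (16.9%) on at most 3. Free RNA, taken from DMSO barcodes with 100 to 500 counts, would give a score of 0.851 to a cell made of nothing else, below the lowest of the chosen cells. That score is an average. It cannot decide whether cells that rest on 2 or 3 counts were chosen through free RNA.

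Ddit3 (ENSMUSG00000025408) was at 301 counts per 1000000 (CPM) of the summed counts in Ddit3/Trib3-high cells and 0 in zero-count cells, and Trib3 (ENSMUSG00000032715) at 172 and 0 CPM, as the choice fixed. In the pyrvinium library Ddit3 was at 311 CPM and Trib3 at 113 CPM, against 39.1 and 23.7 CPM over all DMSO cells. Pyrvinium cells had a median score of 2.77 and a highest score of 38.2, 578 of 854 (67.7%, exact binomial interval 64.4 to 70.8) reached 1.504, the lowest score of the chosen cells, and 56 (6.56%) had 0 counts of both. Free RNA of the pyrvinium library, with Ddit3 at 371 CPM and Trib3 at 127 CPM, scored 4.98, above that median and above the limit. That is the score of a cell made of nothing else. How much of the 67.7% came from free RNA was not tested.

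**Figure D1:**
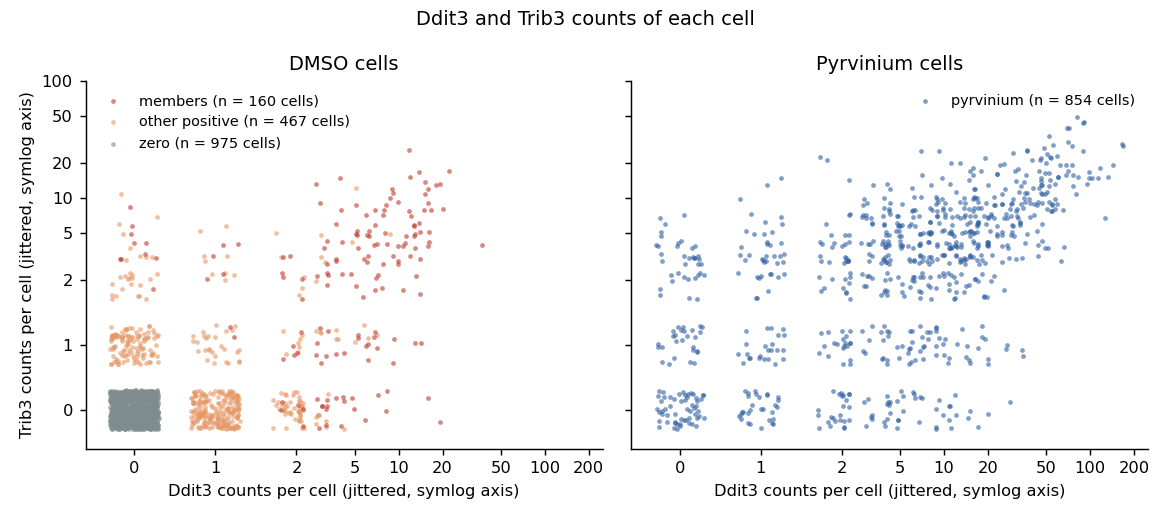
Ddit3 counts (horizontal) and Trib3 counts (vertical) of each cell on symlog axes, jittered, with DMSO cells on the left and pyrvinium cells on the right. Members are the 160 Ddit3/Trib3-high cells, other positive the 467 DMSO cells with fewer counts and zero the 975 cells with none. The choice set where the 160 cells lie. Free RNA of the pyrvinium library alone would score 4.98 per 10000 counts, and its part in the position of the 854 pyrvinium cells was not tested.

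Each gene was also measured in cells chosen by the other gene alone. In the 10% of DMSO cells highest in Ddit3, Trib3 was at 150 CPM, against 9.23 CPM in cells with 0 Ddit3 counts (log2 ratio 4.03, interval 3.80 to 4.25). With each cell thinned to 5000 counts, 46.3% of the cells chosen by Ddit3 held a Trib3 count, against 4.35% of those without Ddit3. In the 10% highest in Trib3, Ddit3 was at 240 CPM, against 15.7 CPM in cells with 0 Trib3 counts (log2 ratio 3.94, 3.77 to 4.10), and 50% against 7.38% of thinned cells held a count. The 2 transcripts were therefore high in the same cells when only 1 of them made the choice, and 134 and 113 of these cells were among the 160.

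Across the transcriptome, 1323 of 12920 genes with at least 20 counts (10.2%) were at least 1.5-fold higher in Ddit3/Trib3-high cells than in zero-count cells, with the whole interval on that side, and 2707 (21.0%) were at least 1.5-fold lower. By the same measure 1180 of 15586 genes (7.57%) were higher in pyrvinium than in DMSO cells and 2416 (15.5%) lower. The median log2 ratio over all genes was -0.22 for the Ddit3/Trib3-high cells and -0.08 for pyrvinium. With libraries scaled by the median of ratios, 1558 genes were higher with pyrvinium and 1952 lower. "Higher" and "lower" are used below for genes past this limit. The chosen cells are part of the DMSO cells that pyrvinium was set against, so the 2 comparisons share cells and their values are given side by side only.

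ATF4 target genes were high in the chosen cells: 21 of 29 tested were higher and 0 lower, with a median log2 ratio of 1.36. With pyrvinium, 18 of 30 were higher and 1 lower, with a median of 0.67. The counts for all genes given above are the background for both, and the list leaves out Ddit3 and Trib3. Per cell thinned to 5000 counts, the median sum of the list was 23.5 counts in Ddit3/Trib3-high cells (quartiles 17.0 and 31.3) and 7 in zero-count cells (5 and 9), and 19 in pyrvinium cells (14 and 24). The quartile ranges of Ddit3/Trib3-high and zero-count cells did not overlap, and those of Ddit3/Trib3-high and pyrvinium cells did.

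Among genes of amino acid supply, Asns, asparagine synthetase (ENSMUSG00000029752), was at 240 CPM in Ddit3/Trib3-high cells against 76.1 CPM in zero-count cells (log2 ratio 1.66, 1.54 to 1.77), and at 219 CPM with pyrvinium against 97.6 CPM with DMSO (1.17). Slc3a2, the heavy chain of amino acid transporters, was at 489 against 124 CPM (1.98) and at 414 against 172 CPM with pyrvinium (1.27). Its light chain partner Slc7a5, a transporter of large neutral amino acids, was at 80.7 against 31.4 CPM (1.36) but at 40.6 against 37.6 CPM with pyrvinium (0.11). The cystine transporter Slc7a11 was at 49.6 against 21.9 CPM (1.18), with a larger ratio for pyrvinium, 103 against 25.2 CPM (2.03). Serine synthesis was uneven: Psph, its last enzyme, had a log2 ratio of 1.23 and Psat1 0.73, while Phgdh, its first enzyme, was at 278 against 218 CPM (0.35), short of the limit, and at 416 against 228 CPM with pyrvinium (0.87). Mthfd2 of mitochondrial folate metabolism (1.68), the proline synthesis genes Pycr1 (1.62) and Aldh18a1 (1.05) and Cth of cysteine synthesis (2.06) were also higher in the chosen cells.

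Chac1, a glutathione-degrading enzyme induced by ATF4, was at 54.6 CPM in Ddit3/Trib3-high cells against 5.23 CPM in zero-count cells (3.38, 3.04 to 3.73), and at 48.7 against 13.1 CPM with pyrvinium (1.90). It was counted in 23.1% of thinned Ddit3/Trib3-high cells, 2.36% of zero-count cells and 19.8% of pyrvinium cells. Gdf15, a secreted stress cytokine, was at 221 against 76.4 CPM (1.53) and reached 742 against 98.7 CPM with pyrvinium (2.91). Eif4ebp1, a repressor of cap-dependent translation, was at 811 against 187 CPM (2.12), and Vldlr, a lipoprotein receptor, at 24.6 against 5.37 CPM (2.19). The targets Shmt2, Slc7a1, Slc1a5, Cbs, Bbc3, Tnfrsf10b and Dnajc3 were on neither side of the limit, with log2 ratios of -0.30 to 0.58.

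Of 14 other regulators of the response, 7 were higher and 0 lower in the chosen cells, with a median log2 ratio of 0.66, and 4 were higher and 2 lower with pyrvinium. Nupr1 (ENSMUSG00000030717), a small stress-induced chromatin protein, was at 4754 CPM against 305 CPM (3.96), and a count of it was in 96.3% of thinned Ddit3/Trib3-high cells and 52.2% of zero-count cells. With pyrvinium it was at 1309 against 806 CPM (0.70). Atf4 itself was at 268 against 111 CPM (1.27) and at 244 against 132 CPM with pyrvinium (0.88). Atf5, a related factor, was at 22.6 against 7.44 CPM (1.61), and Cebpb, a partner of CHOP, at 20.7 against 12.5 CPM (0.73).

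Both remaining regulators that were higher in the chosen cells, apart from Cebpg, were lower with pyrvinium. Ppp1r15a (GADD34), the phosphatase subunit that reverses eIF2alpha phosphorylation, was at 211 CPM in Ddit3/Trib3-high cells against 44.6 CPM in zero-count cells (2.24, 2.10 to 2.38), but at 23.8 CPM with pyrvinium against 62.9 CPM with DMSO (-1.40). Atf3, an early stress-induced factor, was at 268 against 146 CPM (0.87) but at 25.7 against 162 CPM with pyrvinium (-2.65). With zero-count cells weighted to the hypoxia levels of the chosen cells, Ppp1r15a had a log2 ratio of 1.38 in the chosen cells and Atf3 0.30, short of the limit. The 4 eIF2alpha kinase genes Eif2ak1 to Eif2ak4, and Dele1 and Oma1 of the mitochondrial branch, were on neither side of the limit in either comparison. Their activity is not measured by transcript counts.

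Of 20 tRNA synthetase genes of the cytosol, 7 were higher in Ddit3/Trib3-high cells and 2 lower, with a median log2 ratio of 0.41, close to the 0.42 of the same list with pyrvinium, where 5 were higher and 0 lower. The largest ratio was that of the cysteine enzyme Cars, 115 against 36.6 CPM (1.65), followed by the serine enzyme Sars, 255 against 94.4 CPM (1.43). Hars and Farsa were lower, with log2 ratios of -0.63 and -0.74.

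Genes of the response to unfolded proteins in the endoplasmic reticulum were higher in 11 of 22 and lower in 0 in the chosen cells, with a median log2 ratio of 0.62, against 4 higher and 1 lower with pyrvinium and a median of -0.05. Hspa5, the main chaperone of that organelle (ENSMUSG00000026864), was at 1120 CPM in Ddit3/Trib3-high cells against 261 CPM in zero-count cells (2.10, 2.04 to 2.16), and at 526 against 350 CPM with pyrvinium (0.59). Herpud1, which acts in degradation of its misfolded proteins and is also on the ATF4 target list, was at 284 against 71.3 CPM (1.99). The chaperones Hsp90b1 (1.08), Manf (1.01), Pdia6 (0.66) and Creld2 (0.84) were higher in the chosen cells, and with pyrvinium had log2 ratios of -0.32, -0.34, -0.32 and -0.62. Xbp1, the factor of the IRE1 branch, was at 146 against 189 CPM (-0.37), and calnexin, Hyou1 and Pdia3 had ratios of 0.04 to 0.08, so part of the list did not move past the limit.

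**Figure D2:**
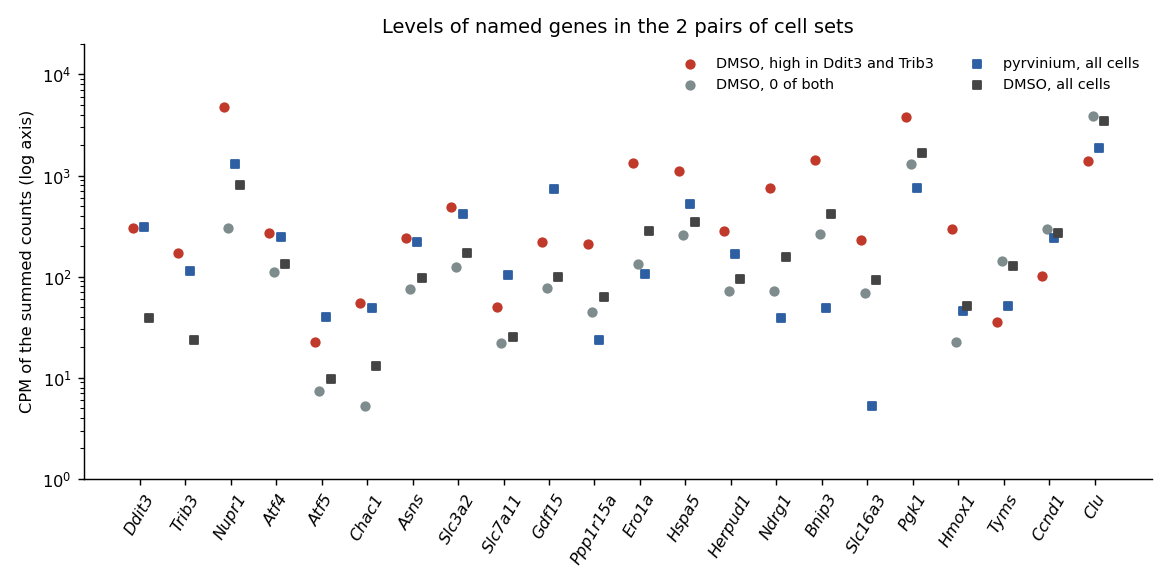
CPM on a log axis of 22 named genes in Ddit3/Trib3-high cells, zero-count cells, all pyrvinium cells and all DMSO cells, 1 point each; a level of 0 is not drawn. Asns, Slc3a2 and Chac1 are higher in the first set of both pairs, while Ppp1r15a, Ero1a, Ndrg1, Bnip3, Slc16a3 and Pgk1 are higher in Ddit3/Trib3-high cells and lower with pyrvinium.

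The chosen cells were also high in hypoxia response and glycolysis transcripts, which pyrvinium cells were not. All 17 hypoxia response genes tested were higher in Ddit3/Trib3-high cells, with a median log2 ratio of 1.76, while with pyrvinium 1 was higher and 14 were lower, with a median of -1.40. All 16 glycolysis genes tested were higher, with a median of 1.17, while with pyrvinium 0 were higher and 13 lower (-0.97). Ndrg1, a gene induced by low oxygen, was at 760 CPM against 71.7 CPM in zero-count cells (3.40, 3.31 to 3.50), and at 38.5 CPM with pyrvinium against 156 CPM with DMSO (-2.01). The mitophagy receptor Bnip3 was at 1418 against 262 CPM (2.44), and at 48.5 against 419 CPM with pyrvinium (-3.11). The lactate exporter Slc16a3 was at 231 against 68.6 CPM (1.75), and at 5.26 against 93.6 CPM with pyrvinium (-4.15). Ero1a, an oxidase of disulfide formation that is known to be induced both by CHOP and by low oxygen, was at 1324 against 134 CPM (3.30), and at 106 against 283 CPM with pyrvinium (-1.41).

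By the hypoxia list, 87 of the 160 Ddit3/Trib3-high cells (54.4%, 46.3 to 62.3) fell in the highest 10% of DMSO cells, against 33 of 975 zero-count cells (3.38%, 2.34 to 4.72). Divided into 5 equal groups by the hypoxia list, low to high, the DMSO cells included 0, 2, 9, 18 and 131 of the 160, and 7 of the 160 were below the DMSO median. In thinned cells, the median sum of the hypoxia list was 37.5 counts in Ddit3/Trib3-high cells (quartiles 27 and 47), 7 in zero-count cells (4 and 14) and 5 in pyrvinium cells (3 and 7). The quartile ranges of Ddit3/Trib3-high and pyrvinium cells thus overlapped for ATF4 targets and lay apart for hypoxia genes.

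**Figure D3:**
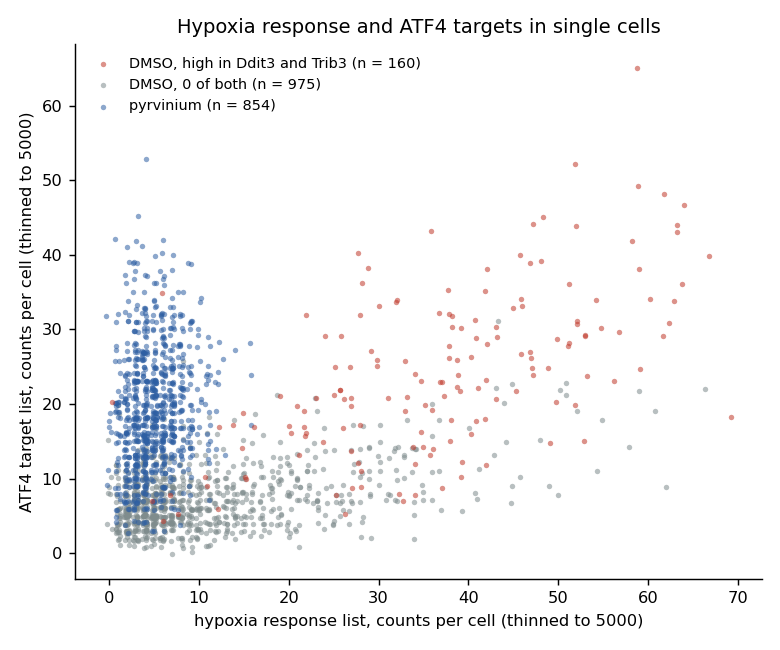
Each point is 1 cell thinned to 5000 counts, with its summed counts of the hypoxia response list (horizontal) and of the ATF4 target list (vertical). The 160 Ddit3/Trib3-high DMSO cells are high on both axes, with medians of 37.5 and 23.5 counts, the 975 zero-count cells low on both, with medians of 7 and 7, and the 854 pyrvinium cells high on the vertical axis only, with medians of 5 and 19.

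Because the hypoxia list moved with the choice, zero-count cells were also weighted by hypoxia group, an alternative chosen after the data were seen. The 5 groups then had the shares they had among the 160 cells. Values called at equal hypoxia use these weights, which match groups and not single cells. The highest group held 131 of the 160 cells and 99 zero-count cells. Of all 12837 genes tested, 774 were then higher and 708 lower, the background for counts at equal hypoxia here and below. ATF4 targets were higher in 24 of 29 and lower in 0 (median 1.08). Genes of the endoplasmic reticulum stress list were higher in 13 of 22 (0.73) and tRNA synthetases in 11 of 20 (0.75). The hypoxia list itself was higher in 3 of 17 (0.24) and glycolysis in 0 of 16 (0.08). The weights were made from the hypoxia list, so its own fall was built in and is no result. Chac1 had a log2 ratio of 3.53 at equal hypoxia, Asns 2.05, Hspa5 1.90 and Nupr1 2.35, and Phgdh, which was short of the limit without the weights, reached 1.11. Ndrg1 was at 0.87, Ero1a at 1.05, Bnip3 at 0.41, Slc16a3 at -0.10 and Pgk1 at 0.06. The interval of Ndrg1 was 0.76 to 0.98 and that of Bnip3 0.34 to 0.48, so the weights matched hypoxia only in part. Low oxygen is known to induce some of the listed ATF4 targets, among them Ddit4, Ero1a and Stc2, and the list may hold others. Without these 3, 18 of 26 targets were higher in the chosen cells (median 1.21), 21 of 26 at equal hypoxia (1.09) and 16 of 27 with pyrvinium (0.80). Whether low oxygen set the counts of either list was not tested.

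The gradient of the score was followed along 7 bins of DMSO cells: zero-count cells, the lower 233 and upper 234 of the other positive cells, and the 160 in 4 groups of 40. The median thinned sum of ATF4 targets was 7, 7 and 9 counts and then 14, 22, 26.5 and 30.5 in the 4 groups. The hypoxia list had medians of 7, 8 and 15.5 and then 26.5, 32.5, 42 and 45 counts. The endoplasmic reticulum stress list had 13, 12 and 14 and then 16, 22.5, 24 and 30 counts. S phase genes had 4, 6 and 4 and then 2.5, 1, 1.5 and 2 counts. All 3 stress lists were thus higher in each successive group of 40, and the lower positive cells, which were deeper with a median of 34656 counts, were close to zero-count cells.

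**Figure D4:**
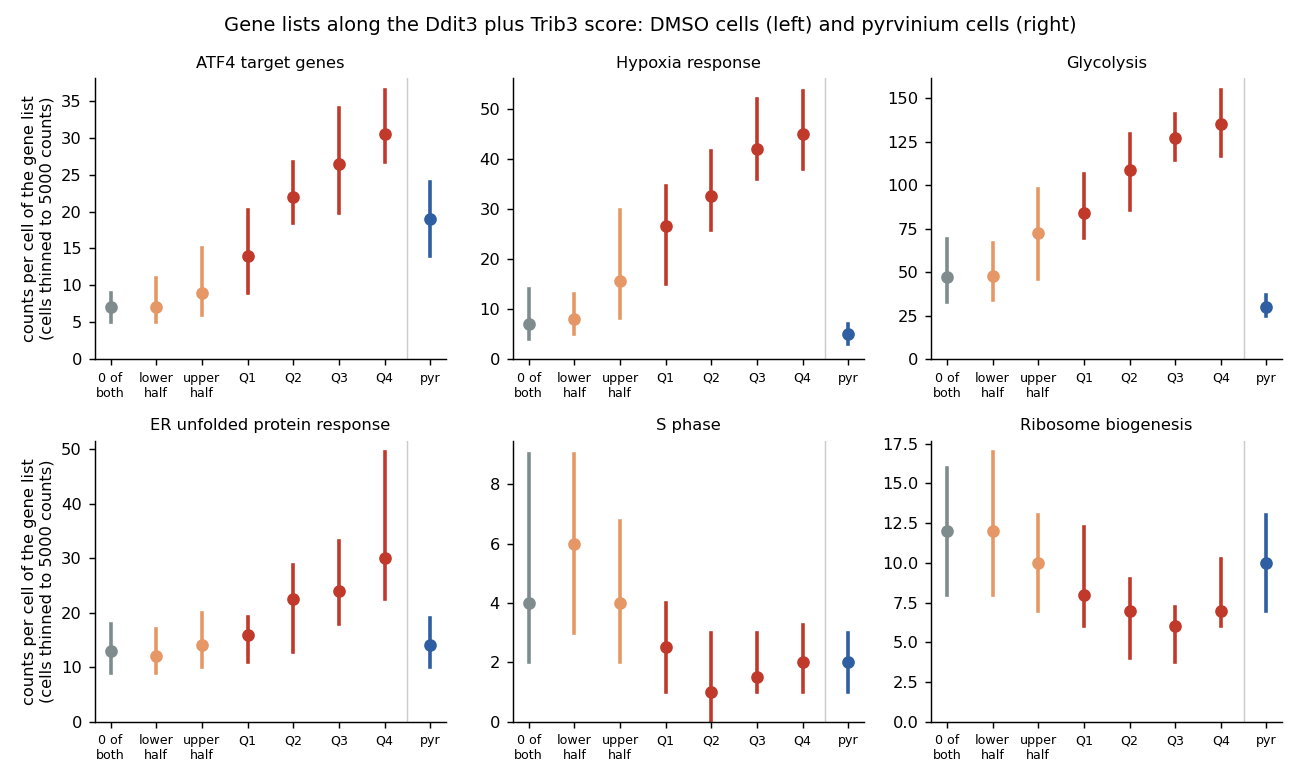
Summed counts per cell of 6 gene lists in cells thinned to 5000 counts, as medians (points) and quartiles (bars), in zero-count cells, the lower and upper part of the other positive DMSO cells, the groups Q1 to Q4 of the 160 Ddit3/Trib3-high cells, and pyrvinium cells right of the line. Medians of ATF4 targets, hypoxia response and glycolysis are higher in each successive group of 40, and pyrvinium cells have a median of 19 counts of ATF4 targets and 5 of the hypoxia response.

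The 12 genes with the highest ratios, other than Ddit3 and Trib3, were Ccl5, Stbd1, Car6, Nupr1, Cidea, Hmox1, Aldh1l2, Angptl6, Bdh2, Lims2, Ndrg1 and Pgf. Genes were ranked if they reached 20 CPM in either set, which favours large ratios. All but Nupr1, Hmox1 and Ndrg1 reached it in the chosen cells only. A single cell held 29.1% of Pgf counts and 24.1% of Car6 counts in the chosen cells. Hmox1, haem oxygenase, was at 297 CPM in Ddit3/Trib3-high cells against 22.3 CPM in zero-count cells (3.73, 3.57 to 3.89) and was not past the limit with pyrvinium, at 45.9 against 51.7 CPM. Aldh1l2, a mitochondrial folate enzyme, was at 33.3 against 2.03 CPM (4.04) and at 15.6 against 5.43 CPM with pyrvinium (1.52). Stbd1, a glycogen-binding protein, was at 25.1 against 0.235 CPM (6.74), and counted in 31.3% against 0.513% of cells. Cidea, a lipid droplet protein, was at 73.1 against 4.33 CPM (4.08) and lower with pyrvinium, at 4.02 against 13.0 CPM. At equal hypoxia the log2 ratios were 1.92 for Hmox1, 2.50 for Aldh1l2, 4.64 for Stbd1 and 1.52 for Cidea. The chemokine Ccl5, at 62.2 against 0.235 CPM, was counted in 5 of the 160 cells, 1 of which held 68.4% of its counts, and its log2 ratio of 8.04 became -2.32 when cells were chosen by Trib3 alone.

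Other stress lists moved less evenly. Of 16 genes of NRF2 and glutathione defence, 8 were higher and 2 lower, with both ferritin chains higher (Ftl1 at 7525 against 3122 CPM, 1.27) and the glutathione peroxidase Gpx2 lower, at 879 against 2104 CPM (-1.26). At equal hypoxia 4 of the 16 were higher and 0 lower. Sqstm1, an autophagy receptor, was at 251 against 58.9 CPM (2.09) and at 214 against 79.7 CPM with pyrvinium (1.42). Of 16 p53 targets, 6 were higher and 2 lower. Among those higher were Pmaip1, an inducer of apoptosis, at 100.4 against 24.5 CPM (2.03), and the cell cycle inhibitor Cdkn1a at 1710 against 722 CPM (1.24). The lists share genes, and Gadd45a (2.26) was counted among both p53 and ATF4 targets. At equal hypoxia 4 p53 targets were higher and 2 lower, with Pmaip1 at 0.64 and Cdkn1a at 0.50, short of the limit. Cytosolic heat shock genes were higher in 1 of 12 and lower in 4. Genes of the mitochondrial unfolded protein response were higher in 3 of 10 and lower in 4. Those higher included Lonp1, at 106 against 41.0 CPM (1.38), and Clpx (1.24), and those lower the chaperonin Hspe1, at 330 against 826 CPM (-1.32). At equal hypoxia Hspe1 was at -0.36 and Clpx at 0.17, both short of the limit, and Lonp1 at 0.69 (0.42 to 0.96), past it. Of 14 death regulators 2 were higher and 4 lower, shares near the 10.2% and 21.0% of all genes.

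Immediate-early genes were higher in 5 of 16 and lower in 1 in the chosen cells, and higher in 0 of 16 and lower in 14 with pyrvinium. Dusp1, a phosphatase that shuts off MAP kinases, was at 172 CPM against 51.8 CPM in zero-count cells (1.74), and at 4.62 against 67.9 CPM with pyrvinium (-3.88). Fos was at 555 against 476 CPM (0.22), short of the limit, and at 35.9 against 491 CPM with pyrvinium (-3.78). Of NF-kappaB targets, 2 of 14 were higher and 3 lower in the chosen cells, and 1 of 15 higher and 10 lower with pyrvinium. The interferon list was higher in 2 of 8 and lower in 3, with Ifitm3 at 741 against 1774 CPM (-1.26), and higher in 7 of 11 with pyrvinium. At equal hypoxia the median of the immediate-early list was -0.19, against 0.37 without the weights, and Dusp1 was at 0.13.

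Transcripts of the cell cycle and of ribosome production were low in the chosen cells, as they were with pyrvinium. Of 25 S phase genes 0 were higher and 23 lower, with a median log2 ratio of -1.48, and with pyrvinium 0 were higher and 22 lower (-1.18). Tyms, thymidylate synthase, was at 35.2 CPM in Ddit3/Trib3-high cells against 144 CPM in zero-count cells (-2.03), and the replicative helicase subunit Mcm6 (-2.19) was likewise among the 12 lowest genes. Of 25 G2M genes 14 were lower (median -0.68), with Mki67 at 10.1 against 23.3 CPM (-1.20). Of 18 ribosome biogenesis genes 13 were lower (-1.11), among them Dkc1 (-2.01) and Bop1 (-1.89), and 8 were lower with pyrvinium. At equal hypoxia 1 of 25 S phase genes and 2 of 18 ribosome biogenesis genes were lower, with medians of -0.12 and 0.00, beside 708 of all 12837 genes.

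The 12 lowest genes also included ccdc198, the tight junction gene Cldn2, Krt4, the lectin Itln1, the potassium channel subunit Kcne3, the tubulin Tuba1a, the splicing factor Mbnl1, Plac9 and Nudt19. All 12 but Tyms reached 20 CPM in zero-count cells only. Cldn2 was at 15.5 CPM in Ddit3/Trib3-high cells against 78.1 CPM in zero-count cells (-2.33), and was not past the limit with pyrvinium, at 57.6 against 71.2 CPM. Of 16 Wnt targets 0 were higher and 12 lower in the chosen cells (median -0.97), and 10 were lower with pyrvinium, with Ccnd1 (cyclin D1) at 103 against 298 CPM (-1.54) and the feedback ubiquitin ligase Rnf43 at 37.9 against 89.0 CPM (-1.23). At equal hypoxia 5 of 16 Wnt targets were lower (-0.53). Of 13 stem cell markers 8 were lower and 2 higher, with Lgr5 at 13.6 against 23.3 CPM (-0.77) and Cd44 at 66.8 against 123 CPM (-0.88), while Prom1 (-0.12) and Alcam (-0.09) were not past the limit.

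Epithelial transcripts were present throughout the chosen cells. Of 10 epithelial markers 4 were higher and 1 lower, with Krt19 at 4235 CPM in Ddit3/Trib3-high cells against 1817 CPM in zero-count cells (1.22) and Cldn4 at 1055 against 346 CPM (1.61). At equal hypoxia 1 of 10 was higher, and Krt19 was at 0.30, short of the limit, and Cldn4 at 0.67. Mucous neck and SPEM markers, which mark spasmolytic polypeptide-expressing metaplasia, were higher in 0 of 11 and lower in 7 (median -1.25), with Clu at 1386 against 3904 CPM (-1.49), and 5 of 11 were lower at equal hypoxia. Surface mucous markers were higher in 2 and lower in 2 of 6, and both that were higher turned round at equal hypoxia, Tff1 with log2 ratios of 0.62 and -0.53 and Psca with 0.62 and -1.07. Squamous markers were higher in 3 of 7 and lower in 1, Krt4 (-2.71), with a median log2 ratio of -0.26, and 26.9% of Sprr1a counts were in 1 cell.

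**Figure D5:**
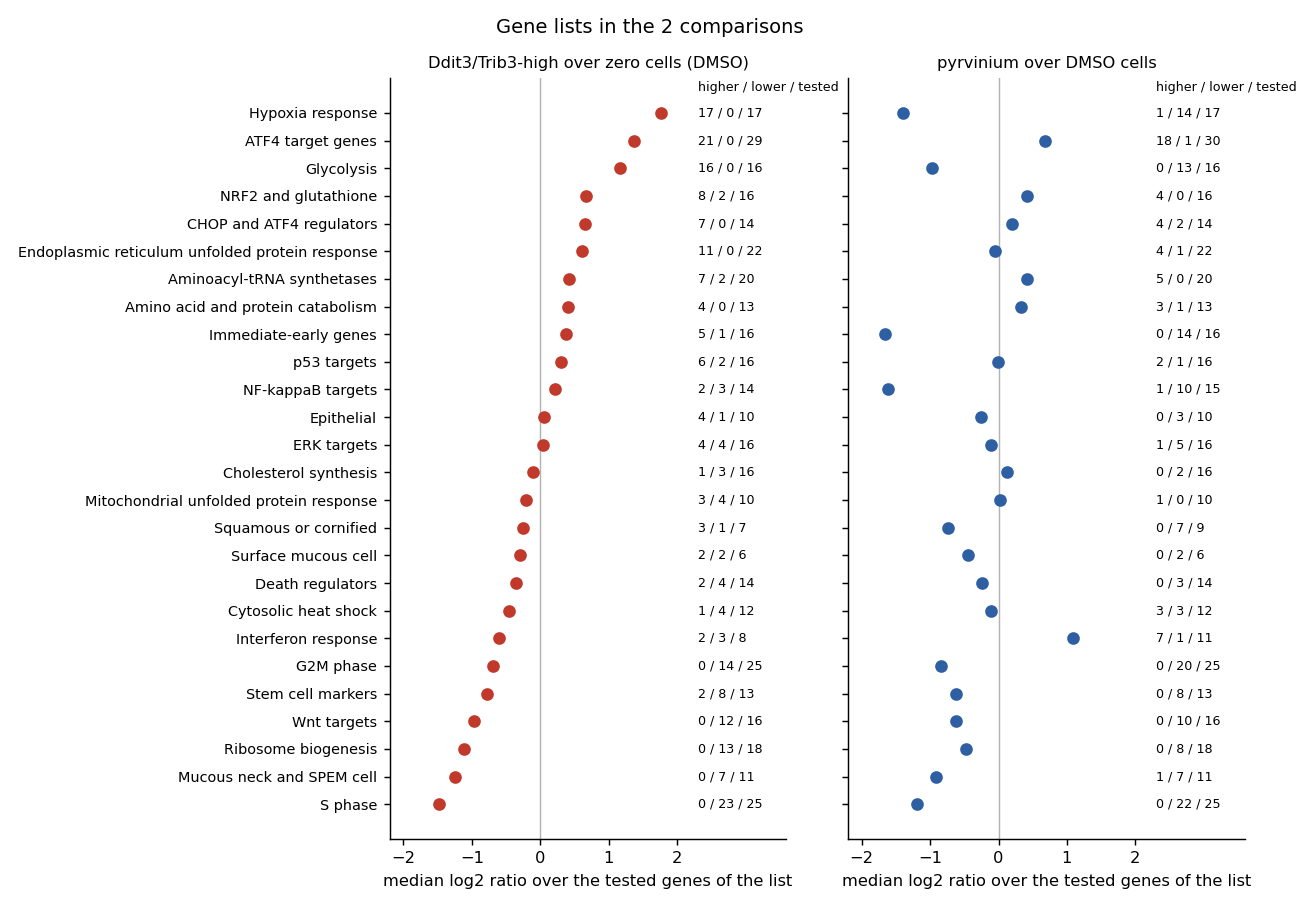
Median log2 ratio of each gene list with at least 5 tested genes, for Ddit3/Trib3-high over zero-count cells on the left and pyrvinium over DMSO cells on the right, with the numbers higher, lower and tested. ATF4 targets lie to the right in both (1.36 and 0.67), and hypoxia response and glycolysis lie on opposite sides (1.76 and -1.40, 1.17 and -0.97).

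Markers of other cell types were mostly at low levels, with single genes that stood apart. Of 8 immune markers, 5 had no counts in the chosen cells, and the sum of 76.7 against 15.8 CPM was almost all Cd68, a lysosomal protein, at 74.5 against 14.0 CPM, while Ptprc was at 0.273 against 0.377 CPM. Fibroblast markers summed to 1.64 against 1.55 CPM with 5 of 8 at 0, and enteroendocrine markers to 0.818 against 0.188 CPM with 6 of 8 at 0. Endothelial markers summed to 30.8 against 46.4 CPM, nearly all Cdh5. Of the tuft cell list, Avil was at 93.3 against 14.9 CPM and Pou2f3 at 94.9 against 75.7 CPM, while Trpm5 and Il25 were at 0 in the chosen cells. Chief cell markers summed to 10.9 against 14.1 CPM, with 1 of 3 tested higher (Bhlha15, 8.18 against 3.63 CPM) and 2 lower. Goblet cell markers summed to 32.7 against 47.8 CPM, with 0 of 4 higher and 2 lower, and parietal cell markers to 21.3 against 16.4 CPM, with 0 of 2 on either side of the limit. The Ddit3/Trib3-high cells were of similar depth to zero-count cells, with medians of 18357 and 17593 counts, and mitochondrially encoded genes took 2.26% and 2.69% of their counts. Of the 160, 8 were in the 5% of DMSO cells with the highest doublet scores, against 21 of 975 (2.15%). Without those 5%, 1344 genes were higher and 2894 lower in the chosen cells, with 21 of 29 ATF4 targets higher.

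Clustered without Ddit3 and Trib3, the DMSO cells fell into 6 groups, numbered 0 to 5. Cluster 0, with Cidea, AA467197, Myl7 and Ndrg1 among its leading genes, held 122 of the 160 Ddit3/Trib3-high cells among its 374 cells. Cluster 1, led by Cdkn2d, Lockd, Nusap1 and Kif22 with the mitotic genes Ccnb2, Aurkb and Plk1 also among its leading genes, held 29 among its 241 cells, and the other 4 clusters held 3, 1, 2 and 3. Within cluster 0, 122 chosen cells were set against 146 zero-count cells, and 590 of 9364 genes were higher and 803 lower. ATF4 targets were higher there in 23 of 29, genes of the endoplasmic reticulum stress list in 16 of 22 and tRNA synthetases in 13 of 20. Hypoxia genes were higher in 7 of 17 and glycolysis in 2 of 16. Without cluster 0, 38 cells were set against 829, and 803 of 12374 genes were higher and 619 lower. ATF4 targets were higher there in 22 of 29 and lower in 1, and hypoxia genes were higher in 17 of 17. G2M genes turned round there, with 17 of 25 higher and a median log2 ratio of 0.83, and Top2a at 0.81 against -0.90 over all cells. Of the 38 chosen cells, 29 were in cluster 1 with its mitotic genes, against 129 of the 829 zero-count cells. The 2 sets without cluster 0 thus differed in cluster make-up. Both cluster comparisons were added after the data were seen, and cells of 1 library are not replicates.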

How the data were processed

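Per the labels' protocols, PIPseq was used for capture and lysis and its T2 kit for the libraries. The authors deposited whole-number counts per gene and barcode for 32227 genes, not normalized, and Partek and the build GRCm39 were used per the submitters' processing notes; which aligner, annotation and barcode filter were used is not given in the sources used here. Barcodes with at least 9320 counts (DMSO) or 13100 (pyrvinium), at least 500 genes and at most 20% mitochondrial counts were kept, without removal of doublets. Counts were summed over the cells of a set and scaled to CPM, with exact Poisson intervals, and log2 ratios had exact conditional binomial intervals. Log2 ratios at equal hypoxia had approximate normal intervals instead. A gene was called from a 1.5-fold ratio with the whole interval beyond 1. A gene at 0 in a set was set against 3 counts over that set. Cells were thinned to 5000 counts for sums and shares per cell. Of 27 symbols shared by several genes, the lowest Ensembl number was used; the second Ddit3 gene had 16 counts in DMSO cells. DMSO cells were clustered with scanpy 1.11.5 (2000 variable genes, 30 components, 15 neighbours, Leiden resolution 0.5), without Ddit3 and Trib3. Python 3.11.15, numpy 2.4.6, scipy 1.17.1, pandas 2.3.3 and matplotlib 3.10.9 were used. The ratios were tested on simulated counts with counting error only, without differences between cells and without the choice of cells.

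The cells, 34 gene lists, rules and alternatives were chosen with earlier results of these data known. Named genes are Ddit3 and Trib3, the 12 highest and 12 lowest by the end of the interval that is closer to 0, of genes that reached 20 CPM in a set (without mitochondrial, ribosomal protein and unnamed genes), up to 4 of each list by size of the ratio that reached 10 CPM, and a short list of stress, stem cell and pathway genes; other members of a list described were named after their values were seen, to account for the whole list. Alternatives changed the choosing gene, the share chosen, depth, thresholds, scaling, weights of zero-count cells, minimum counts, doublet scores and free RNA, and 4 more were added after the data were seen. Some genes that these rules take are left out of the text.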

Additional observations from a re-analysis of the deposited data

How the results depend on the processing

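Each difference rests on 1 library per treatment, so depth limits only the counting error, and variation between cultures was not measured. No paired analysis was possible because each treatment had 1 library. Across all 22 alternatives for the chosen cells, ATF4 targets were higher in 20 to 24 genes. The 1323 higher and 2707 lower genes fell under several alternatives, and either number rose under others. Scaled by the median of ratios, 1527 were higher and 2277 lower. Without the chosen cell with the highest count of each gene, 1079 were higher and 3347 lower. With free RNA subtracted there were 1458 and 3075 of 12666. There were 1751 of 13213 genes lower with the top 20% of cells. When cells were thinned before the choice (113 of 160 cells shared), 723 of 10488 genes were higher and 1008 lower. With zero-count cells weighted to the clusters there were 759 and 901 of 12837, and at equal hypoxia 774 and 708 of 12837. Within cluster 0 there were 590 and 803 of 9364, and without it 803 and 619 of 12374. Fewer cells entered the comparisons within and without cluster 0. The cause of these changes was not tested. The pyrvinium counts stayed within 1.5 times, at 1236 and 2385 with the DMSO threshold in both libraries, and at 1292 and 2549 against zero-count cells.

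Some log2 ratios changed sign. Itln1 was at 0.89 by Ddit3 alone and 0.24 with the top 20%, and by Trib3 alone Ccl5 was at -2.32 and Tff2 at 0.40. With cluster weights the immediate-early median was -0.0047, Tff1 -0.30 and Psca -0.80. At equal hypoxia the immediate-early median was -0.19, the ribosome biogenesis median 0.0037, Htra2 0.092, Slc16a3 -0.10, Gclc -0.035, Nfkbia -0.15, Uhrf1 0.10, Tff1 -0.53, Psca -1.07, Tff2 0.67 and Cdh5 0.12. Within cluster 0, Tuba1a was at 0.11, Sp5 0.39, Tff1 -0.42 and Psca -0.95. Without it, the G2M median was 0.83, Hmmr 0.73, Plk1 0.57, Mki67 0.38, Birc5 0.45, Ascl2 0.019, Cnfn -1.90 and Top2a 0.81. Pyrvinium over zero-count cells gave 2.52 for Ccl5 and 0.25 for Sprr1a. The cause was not tested.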
